A study of Mus musculus with 7 samples.

Results

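Complement transcripts were followed in blood progenitors of the mouse fetal liver with and without Brd9, a bromodomain protein found in the non-canonical form of the BAF remodelling complex. The 9 genes were taken by symbol from a count table of 35976 symbols: the C1q chains C1qa, C1qb and C1qc, properdin (Cfp), the anaphylatoxin receptors C3ar1 and C5ar1, and the membrane regulators Cr1l, Cd55 and Cd59a. All 9 were found, and all 9 were among the 14679 genes with enough reads to be tested. All libraries came from C57BL/6 embryos at E14.5 that carried CD45.2 and were homozygous for a loxP-flanked Brd9 allele (Brd9fl/fl), and the cells were the lineage-negative fraction, what remains after magnetic removal of cells with mature lineage markers. The 3 control libraries had no recombinase and the 4 knockout libraries also carried Vav1-iCre, a recombinase driven in blood cells from the Vav1 promoter, so recombinase and Brd9 loss cannot be told apart. The labels do not say whether a library was 1 embryo or a pool, and p-values therefore measure only the spread between these libraries.

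Complement is a cascade of blood proteins that tags microbes and dying cells for uptake. C1q, a hexamer of trimers with 1 of each chain per trimer, opens the classical pathway, and ficolins and mannose-binding lectins open the lectin pathway. Properdin stabilises the C3 convertase of the alternative pathway, and the fragments C3a and C5a act on leukocytes through C3ar1 and C5ar1. Host cells protect themselves with Cr1l (Crry) and Cd55, which act on the C3 convertases, and with Cd59a, which blocks the membrane attack complex. Most plasma components are made by hepatocytes. C1q comes mainly from macrophages, and properdin from myeloid cells.

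C5ar1 fell in the knockouts, and it was the only one of the 9 to pass edgeR's test over all genes. The C1q chains and properdin were lower on average, but none of these 4 passed in edgeR, and the C1q libraries were widely spread. DESeq2 also called C1qc and Cfp lower (adjusted p = 0.013 and 0.026), where it called 2.27% of all genes tested lower. The regulators Cr1l and Cd59a were at or slightly above the control level. Over the 9 genes, 7 had a lower fitted fold change, against 47.6% of all genes tested, and the median log2 fold change was -0.80, against 0.011 over all genes tested. The members were chosen with earlier results of these data known, and the C1q chains varied together over the libraries. The shares given here are therefore a description of the list. Levels are in CPM, reads per 1e6 reads of the scaled library. A call at a Benjamini-Hochberg adjusted p under 0.05 in edgeR's quasi-likelihood test was reached as lower by 1 of 9, where 0.545% of all genes tested were called lower. In 4 of 9 (C1qc, Cfp, C5ar1 and Cd55) all knockout libraries lay below all controls, where 6.81% of all genes tested did. The same 4 were lower at an unadjusted p under 0.05, where 6.90% of all genes tested were. In these bulk samples, fewer cells of a type and less RNA per cell cannot be told apart.

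**Figure D1:**
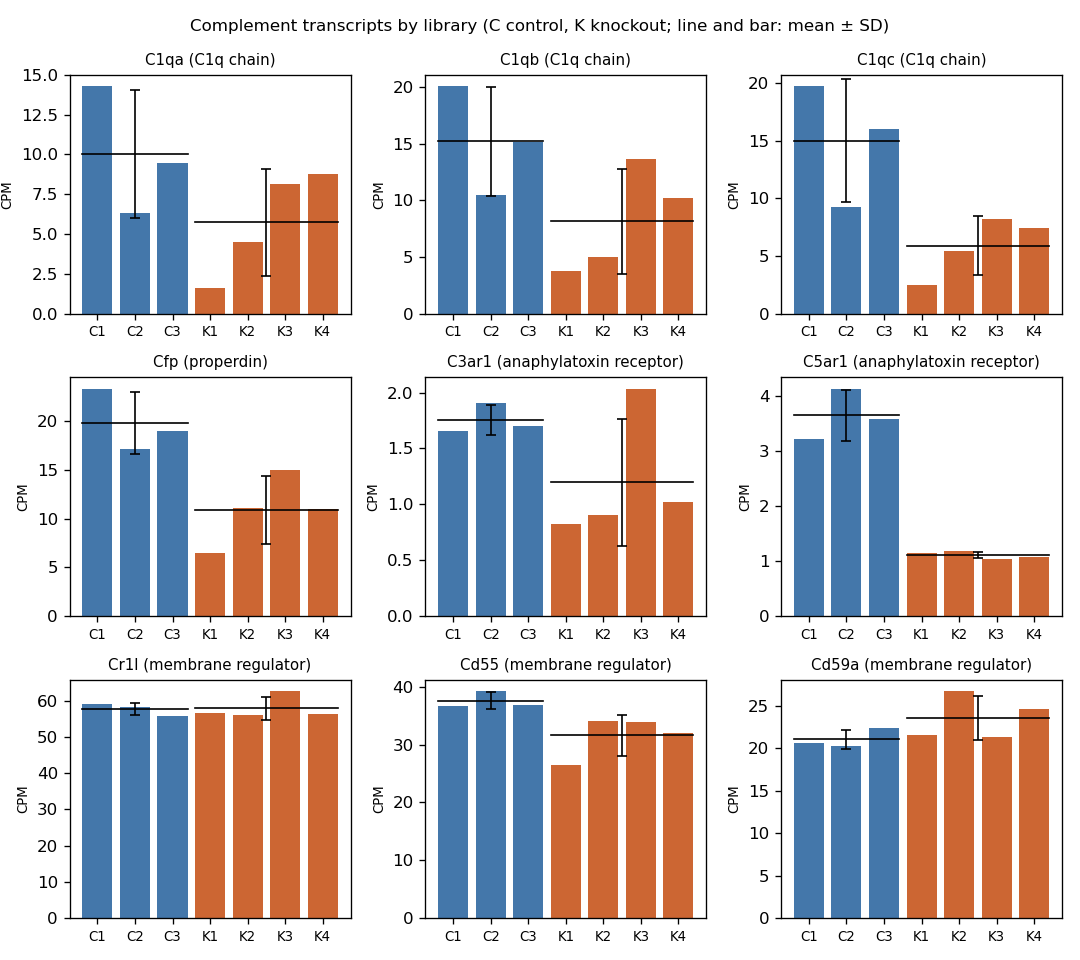
Bars give CPM (vertical axis) of each complement gene in the 3 control libraries (C1 to C3, blue) and the 4 knockout libraries (K1 to K4, orange). Black lines and error bars are the group mean ± SD. C5ar1 sits between 1.04 and 1.17 CPM in all knockouts and at 3.23 CPM or above in all controls, while the Cr1l bars are nearly level.

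Total counts ran from 18748885 to 23571878 per library. Brd9 had 30.6, 32.2 and 36.5 CPM in controls against 8.57, 11.9, 13.2 and 12.2 CPM in the knockouts, each on the side its label gives. The fraction had Kit (294 and 195 CPM as control and knockout means) and Cd34 (78.9 and 78.4 CPM), both markers of blood progenitors, but also hepatocyte transcripts, with 10055 to 17738 CPM summed over 8 marker genes in the controls and 12883 to 22866 CPM in the knockouts. Kit itself was lower in every knockout than in any control (log2 fold change -0.59, edgeR adjusted p = 0.056, DESeq2 adjusted p = 0.00021). Knockout replicates 1 and 3 stood apart from the other knockouts on the first and the second principal component of log2 CPM. Knockout replicate 3 held 16.1 CPM of Rag1 and 3.46 CPM of Cd3e, lymphoid genes that had at most 0.975 and 0 CPM in the other 6 libraries. Among the 9 complement genes, knockout replicate 1 was the lowest knockout in 6 and knockout replicate 3 the highest in 5.

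The C1q genes are neighbours on the minus strand of chromosome 4 (GRCm38, RefSeq positions): C1qb from 136880126 to 136886200, C1qc from 136889801 to 136892936 and C1qa from 136895916 to 136898844. Each has 3 exon blocks in GENCODE vM21. C5ar1 lies on the minus strand of chromosome 7, from 16246743 to 16259540. RefSeq promoter windows (GRCm38.p6), the 250 bases before the transcript start that the promoter table uses, were found for 8 of the 9 genes. Those of C1qb, a chain of the C1q cluster, and of C5ar1, the gene that was called, are shown on the gene's strand. The C1qb window lies wholly outside the gene. The C5ar1 start in that table is inside the gene span given above, so 202 of its 250 bases lie within that span, 28 of them in an annotated GENCODE exon. The C1qc window, not shown, has 151 bases in GENCODE exons. Of the other windows not shown, that of Cd55 lies wholly within its RefSeq gene span, and that of Cd59a has 48 bases in its own. Both lie outside the GENCODE gene spans. Capitals mark GAGGAA, a motif bound by ETS factors such as PU.1, and TGCTGA, a half-site of the Maf recognition element. Each was searched on both strands (TTCCTC and TCAGCA on the other). These motifs do not overlap each other in the sequences shown.
C1qb, chr4:136886201-136886450: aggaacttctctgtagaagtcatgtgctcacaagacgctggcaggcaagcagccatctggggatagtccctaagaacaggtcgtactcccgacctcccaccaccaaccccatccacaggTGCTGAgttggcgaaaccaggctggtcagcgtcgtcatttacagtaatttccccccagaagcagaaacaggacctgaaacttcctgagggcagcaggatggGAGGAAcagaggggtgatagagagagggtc
C5ar1, chr7:16259339-16259588: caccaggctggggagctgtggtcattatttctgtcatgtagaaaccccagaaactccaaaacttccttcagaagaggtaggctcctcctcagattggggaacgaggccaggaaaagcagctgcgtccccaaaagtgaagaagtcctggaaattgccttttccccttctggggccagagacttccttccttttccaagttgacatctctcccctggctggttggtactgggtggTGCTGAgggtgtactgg
C1qb held both motifs, with the first base of GAGGAA 30 bases and that of TGCTGA 131 bases before the table's start. No other window held both. C1qc held GAGGAA alone, and C1qa was the gene for which no window was found. C5ar1 held TGCTGA 17 bases before its start in the table, which is within the RefSeq gene span. Of the 8 promoter windows 3 held GAGGAA and 4 held TGCTGA. Over all 32851 RefSeq promoter windows of this length the shares were 23.3% and 16.1%. A match is only a description of the letters, and no binding was measured.

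The C1q chains shared their highest and their lowest library. C1qa, the A chain, had 14.3, 6.33 and 9.47 CPM in controls against 1.58, 4.47, 8.15 and 8.77 CPM in the knockouts. C1qb had 20.1, 10.4 and 15.1 CPM in controls against 3.77, 4.97, 13.7 and 10.2 CPM in the knockouts. C1qc had 19.7, 9.23 and 16.0 CPM in controls against 2.51, 5.42, 8.24 and 7.41 CPM in the knockouts. In all 3 genes control replicate 1 was the highest library and knockout replicate 1 the lowest. C1qa and C1qb of knockout replicates 3 and 4 lay within or close to the control range, so the groups overlapped, whereas every knockout lay below every control in C1qc.

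The fold changes of the chains were accordingly uncertain. C1qc had a log2 fold change of -1.34 (SE 0.37), with means of 15.0 ± 5.3 CPM (SD, n = 3) in controls and 5.90 ± 2.55 CPM (SD, n = 4) in knockouts, and did not pass in edgeR's quasi-likelihood test (adjusted p = 0.194). DESeq2 called it lower (adjusted p = 0.013), where 2.27% of all genes tested were called lower. C1qb had a log2 fold change of -0.89 (SE 0.41, edgeR adjusted p = 0.479) and C1qa of -0.80 (SE 0.48, edgeR adjusted p = 0.610). The 95% interval of the C1qa fold change ran from -1.88 to 0.28 on the log2 scale, that is, from 3.68-fold lower to 1.22-fold higher.

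**Figure D2:**
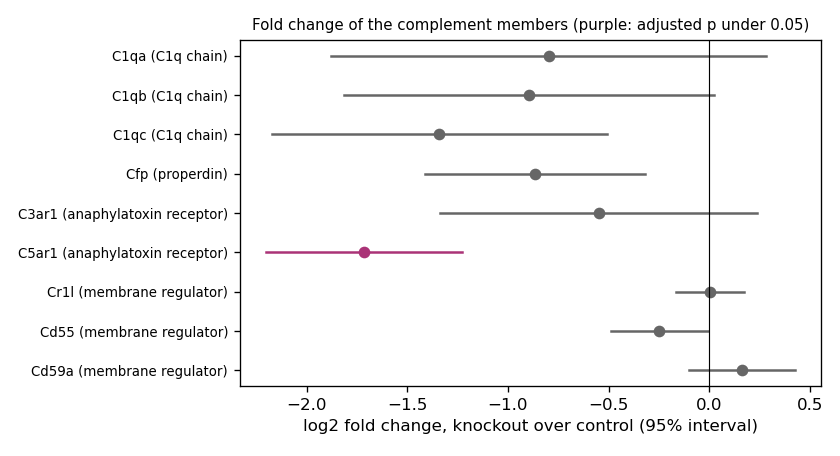
Points give the fitted log2 fold change of each complement gene, knockout over control, and lines its 95% interval. Purple marks the gene past an adjusted p of 0.05. The C1q chains and C3ar1 have wide intervals, C5ar1 lies wholly below 0 (from -2.20 to -1.23), and Cr1l is held between -0.17 and 0.17.

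The share of each chain in the summed C1q reads varied more among the knockouts than among the controls. C1qc made up 36.5%, 35.5% and 39.5% of C1q reads in controls against 31.9%, 36.5%, 27.4% and 28.0% in the knockouts. C1qa made up 24.7% ± 1.6 (SD, n = 3) and 27.6% ± 5.6 (SD, n = 4), and C1qb 38.2% ± 1.7 and 41.4% ± 6.6. Knockout replicate 1 had 144 C1q reads in all, against 628 to 1174 in the controls and 329 to 635 in the other knockouts, so its shares are the least precise. These shares are a description and were not tested.

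Most macrophage markers had lower fitted fold changes, as the C1q chains had, but 1 of 18 passed in edgeR. Of 20 listed, 18 had enough reads to be tested. Of these, 17 had a lower fitted fold change, against 47.6% of all genes tested, and 14 were lower at an unadjusted p under 0.05, against 6.90%. Siglec1 was the 1 that fell over all genes, against 0.545% of all genes tested, and DESeq2 called 8 lower, against 2.27%. The edgeR count was 0 without control replicate 3 and 2 without control replicate 2 or knockout replicate 1. The summed level of the list was 371 to 510 CPM in controls against 193 to 295 CPM in the knockouts, with no overlap. Adgre1, which encodes the macrophage antigen F4/80, had 27.5, 19.7 and 21.2 CPM in controls against 4.10, 11.8, 14.6 and 13.6 CPM in the knockouts (log2 fold change -1.04, edgeR adjusted p = 0.298). Csf1r, the receptor for macrophage colony-stimulating factor, had 60.9 ± 11.0 and 35.3 ± 16.5 CPM (edgeR adjusted p = 0.479), and Cd68, a lysosomal protein of phagocytes, 9.30 ± 1.38 and 9.77 ± 2.04 CPM (edgeR adjusted p = 0.921; SD, n = 3 and 4). Vsig4, a complement receptor of tissue macrophages, had 6 reads in control replicate 1 and 0 in the other 6 libraries. How far the macrophage transcripts account for the C1q levels was not tested.

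Set against single macrophage genes, C1q gave different pictures. Summed C1q was 1.97, 1.32 and 1.91 times the Adgre1 level in controls against 1.92, 1.26, 2.06 and 1.94 times in the knockouts, so the groups covered nearly the same range. Against Cd5l, which macrophages secrete, C1q was 1.02, 1.05 and 0.995 times in controls against 8.47, 2.89, 3.94 and 3.10 times in the knockouts, with no overlap. Cd5l itself had 53.0, 24.8 and 40.8 CPM in controls against 0.928, 5.15, 7.63 and 8.53 CPM in the knockouts (log2 fold change -2.82, edgeR adjusted p = 0.054, DESeq2 adjusted p = 0.0076). Against Csf1r the C1q ratio was 0.692 ± 0.297 (SD, n = 3) and 0.566 ± 0.109 (SD, n = 4), and against the summed macrophage list 0.0892 ± 0.0181 and 0.0767 ± 0.0303. The ratios to single genes were chosen with the values known and are given with no test.

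**Figure D3:**
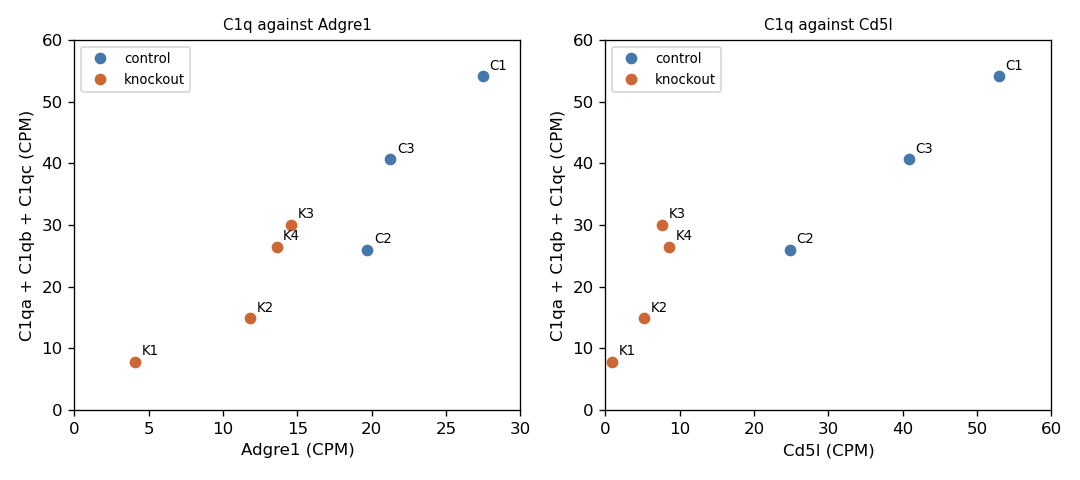
Each point is a library (C control, blue; K knockout, orange), with summed C1qa, C1qb and C1qc in CPM on the vertical axes and Adgre1 (left) or Cd5l (right) in CPM on the horizontal axes. On the left, controls and knockouts have C1q to Adgre1 ratios of 1.26 to 2.06. On the right, the knockouts lie to the left of the controls, all at or below 8.53 CPM of Cd5l.

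The genes whose log2 CPM followed the C1q chains most closely over the 7 libraries, by the root mean square difference from their mean centred profile among 12110 candidates, were Cd86, Hmox1, Slc15a3, Axl and Abcc3. Cd86 is a costimulatory ligand of antigen-presenting cells, Hmox1 the inducible haem oxygenase, Slc15a3 a lysosomal peptide transporter, Axl a receptor for apoptotic cell uptake and Abcc3 an organic anion exporter. Their differences were 0.149 to 0.239 on the log2 scale, while each C1q chain itself differed from the chains' mean by 0.183 to 0.194. They were picked for this likeness, so their differences are a description with no test. Hmox1 had 47.9 ± 18.8 CPM in controls against 21.5 ± 8.1 CPM in the knockouts (SD, n = 3 and 4).

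Properdin was lower in every knockout than in any control. Cfp lies on the minus strand of the X chromosome, from 20925454 to 20931555. It had 23.4, 17.2 and 19.0 CPM in controls against 6.44, 11.1, 15.0 and 11.0 CPM in the knockouts. The means were 19.9 ± 3.2 CPM (SD, n = 3) and 10.9 ± 3.5 CPM (SD, n = 4), a log2 fold change of -0.87 (SE 0.24) that did not pass in edgeR's quasi-likelihood test (adjusted p = 0.205) and was called by DESeq2 (adjusted p = 0.026). The authors' deposited table, made with DESeq2 from the same libraries, also lists Cfp at an adjusted p of 0.0256, beside C1qc at 0.0116 and C5ar1 at 9.5e-07.

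Because Cfp is X-linked, its values were also read beside Xist, the transcript that silences 1 X chromosome in females. Xist had 756 and 802 CPM in control replicates 1 and 3 and 740 CPM in knockout replicate 2, and at most 0.373 CPM in the other 4 libraries. Among the Xist-high libraries Cfp was 23.4 and 19.0 CPM in controls against 11.1 CPM in the knockout. Among the Xist-low libraries it was 17.2 CPM in the control and 6.44, 15.0 and 11.0 CPM in the knockouts. The knockouts were thus lower within both sets, each of which has too few libraries for a test. Summed C1q was 54.1 and 40.6 CPM in the Xist-high controls against 14.9 CPM in the Xist-high knockout. Among the Xist-low libraries it was 26.0 CPM in the control and 7.86, 30.1 and 26.4 CPM in the knockouts. With the Xist level as a covariate the Cfp log2 fold change was -0.78 (edgeR adjusted p = 0.512). In that fit C1qa had -0.65, C1qb -0.93 and C1qc -1.10 (edgeR adjusted p = 0.872, 0.791 and 0.599). C5ar1 had -1.75 (edgeR adjusted p = 0.038).

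Nearest to the Cfp profile were Fcgr1, Olfm1, Ptpn14, Il6 and Trpm2, with root mean square differences of 0.110 to 0.204 on the log2 scale. Fcgr1 is the high-affinity receptor for IgG, Olfm1 a secreted olfactomedin protein, Ptpn14 a tyrosine phosphatase, Il6 a cytokine and Trpm2 a cation channel. They were picked for a profile in which every knockout is below every control, so their differences are a description with no test. Ptpn14 had 14.6 ± 1.3 CPM in controls against 7.55 ± 1.70 CPM in the knockouts (SD, n = 3 and 4).

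C5ar1, the receptor through which C5a attracts and activates neutrophils and macrophages, fell 3.28-fold. It had 3.23, 4.14 and 3.59 CPM in controls against 1.15, 1.17, 1.04 and 1.07 CPM in the knockouts. The knockouts lay close together and far below the lowest control, and they rest on 21 to 26 reads each against 70 to 100 in the controls. The log2 fold change was -1.71 (SE 0.22, edgeR adjusted p = 0.010), with a 95% interval from 2.34-fold to 4.60-fold lower. The call held in 13 of 16 alternatives, and the log2 fold change lay between -1.79 and -1.62 in all 16. Among the fits that left out 1 library it was lost without control replicate 3 (adjusted p = 0.072) and without knockout replicate 2 (0.055). An edgeR fit with the replicate number as a block also lost it (adjusted p = 0.053).

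Of 15 neutrophil markers tested, 7 fell in edgeR over all genes, against 0.545% of all genes tested, and 8 in DESeq2, against 2.27%. A lower fitted fold change was found in 14, against 47.6%, while Mmp8, a neutrophil collagenase, was higher and did not pass (log2 fold change 1.97, edgeR adjusted p = 0.320). The edgeR count was 3 without control replicate 3, 2 without knockout replicate 2, and 4 without control replicate 2, knockout replicate 1 or knockout replicate 4. The summed level of the list was 4996 to 8901 CPM in controls against 1669 to 3828 CPM in the knockouts. The largest part of that sum was Mpo, with 3508 ± 999 and 1122 ± 348 CPM (SD, n = 3 and 4), so the sum says less about the other markers. Knockout replicate 3 had the most neutrophil marker RNA of the knockouts, 3828 CPM against 1669 to 2224 CPM. C5ar1 had 21 to 26 reads in each knockout, too few to rank these libraries by it. Monocyte markers summed to 395 to 554 CPM in controls against 280 to 664 CPM in the knockouts, with means of 467 and 472 CPM. Most of that sum was Fn1, with 278 ± 91 and 410 ± 199 CPM (SD, n = 3 and 4), the 1 marker with a higher fitted fold change. The sum therefore says little about the other 7. Of the 8 monocyte markers, 7 had a lower fitted fold change and F13a1 was the 1 that fell in edgeR. In DESeq2 2 genes fell, and 2 in edgeR without control replicate 1 or without knockout replicate 3. The part of neutrophil and monocyte transcripts in the C5ar1 result was not tested.

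The other anaphylatoxin receptors gave smaller differences. C3ar1, the receptor for C3a, had 1.66, 1.90 and 1.70 CPM in controls against 0.819, 0.903, 2.04 and 1.02 CPM in the knockouts. Knockout replicate 3 stood above every control and the other 3 knockouts below, so the groups overlapped (log2 fold change -0.55, SE 0.35, edgeR adjusted p = 0.625). Without that library the log2 fold change was -0.93 (adjusted p = 0.196). C5ar2, the second C5a receptor, whose gene lies 2589 bases from C5ar1, had 3.27, 3.35 and 2.76 CPM in controls against 2.57, 2.53, 1.75 and 2.44 CPM in the knockouts. All its knockouts lay below its controls, by less than those of C5ar1, and it did not pass (log2 fold change -0.43, SE 0.22, edgeR adjusted p = 0.539).

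The membrane regulators Cr1l, Cd55 and Cd59a had log2 fold changes between -0.25 and 0.16, and none passed. Cr1l, the main rodent regulator of C3 convertases on blood cells, had 59.0, 58.3 and 55.9 CPM in controls against 56.5, 56.0, 62.7 and 56.2 CPM in the knockouts. Its log2 fold change was 0.0029 (SE 0.076, edgeR adjusted p = 0.994) with a 95% interval from -0.17 to 0.17, that is, from 1.12-fold lower to 1.13-fold higher. The sign of this near-zero value was negative in 5 of 16 alternatives, among them total-count scaling. Cd59a, the inhibitor of the membrane attack complex, had 20.6, 20.2 and 22.3 CPM in controls against 21.6, 26.7, 21.3 and 24.6 CPM in the knockouts. Its log2 fold change of 0.16 (SE 0.12, edgeR adjusted p = 0.665) had an interval from -0.10 to 0.42.

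Cd55, the decay-accelerating factor, had 36.6, 39.2 and 36.8 CPM in controls against 26.4, 34.1, 33.8 and 32.0 CPM in the knockouts. All knockouts lay below all controls, but the log2 fold change was small, -0.25 (SE 0.11), and did not pass (edgeR adjusted p = 0.447, DESeq2 adjusted p = 0.434). Cd46, a neighbour of Cr1l on chromosome 1 whose product regulates complement, had 2.10 ± 0.49 CPM in controls against 1.35 ± 0.34 CPM in the knockouts (SD, n = 3 and 4; edgeR adjusted p = 0.469). The close paralogues were scarce. Cd55b had 3 reads over all controls and 9 over all knockouts, and Cd59b had 2.15 ± 0.51 and 2.28 ± 0.33 CPM (SD, n = 3 and 4). Reads shared between such copies could have been split or dropped by the counting.

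Per kilobase of exon in GENCODE vM21, the order of levels was not the same in the 2 groups, a difference that was not tested. In the controls it was C1qb (14.0 CPM per kilobase), Cd59a (11.6), Cfp (11.4), C1qa (9.64), C1qc (7.77), Cd55 (7.74), Cr1l (5.58), C5ar1 (1.42) and C3ar1 (0.408). The libraries of neighbours in this order overlapped from C1qb down to Cd55, and they did not overlap between Cd55 and Cr1l, Cr1l and C5ar1, or C5ar1 and C3ar1. In the knockouts Cd59a was first (13.002 CPM per kilobase), followed by C1qb (7.50), Cd55 (6.51), Cfp (6.26), Cr1l (5.59), C1qa (5.52), C1qc (3.05), C5ar1 (0.431) and C3ar1 (0.278). There only C1qc and C5ar1 had neighbouring libraries that did not overlap. The exon lengths assume every annotated exon is used, which for Cr1l spans 10.3 kilobases.

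Beyond these 9 genes, 50 further complement genes were listed, of which 42 were tested, 1 fell, 0 rose and 41 did not pass in edgeR, where 0.545% of all genes tested fell and 0.0136% rose. At an unadjusted p under 0.05, 4 were lower and 0 higher, where 6.90% and 3.95% of all genes tested were. DESeq2 called 1 lower and 0 higher, where it called 2.27% and 0.409% of all genes tested. Their median log2 fold change was -0.019, with 22 lower and 20 higher. The gene that fell was Fcnb, ficolin B of neutrophil granules, a lectin pathway recognition protein that is also in the neutrophil list. It had 105, 207 and 186 CPM in controls against 9.99, 16.8, 34.96 and 14.3 CPM in the knockouts, with no overlap (log2 fold change -3.12, SE 0.39, edgeR adjusted p = 0.010). The call held in 14 of 16 alternatives and was lost without control replicate 3 (adjusted p = 0.054) and without knockout replicate 2 (0.055).

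**Figure D4:**
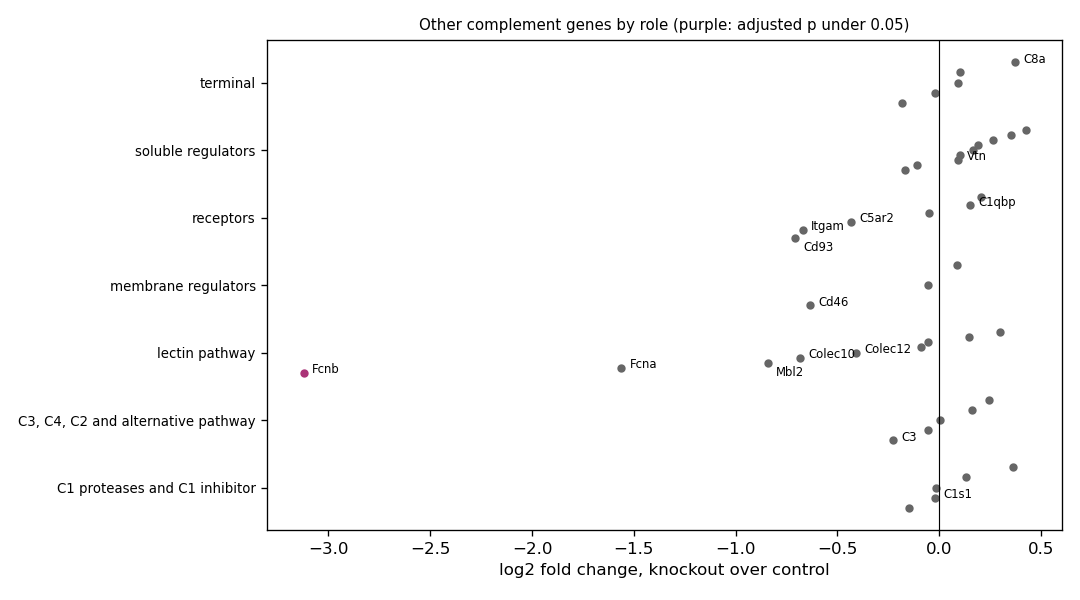
Each point is 1 of 42 tested further complement genes, placed by its fitted log2 fold change (knockout over control, horizontal axis) and its role (vertical axis), with small vertical offsets only to separate points. Purple marks Fcnb, at -3.12, past an adjusted p of 0.05. The tested terminal components, soluble regulators and components around C3 lie between -0.23 and 0.43. C6, a terminal component with too few reads to be tested, is not shown.

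Fcna, ficolin A of macrophages, had its 7 libraries in the same order as C1qc. It had 19.4, 8.53 and 15.5 CPM in controls against 1.26, 3.57, 7.86 and 6.82 CPM in the knockouts. Control replicate 1 was highest and knockout replicate 1 lowest, and the groups did not overlap. The log2 fold change was -1.56 (SE 0.49) and did not pass (edgeR adjusted p = 0.271, DESeq2 adjusted p = 0.287). The other lectin pathway members named by their p-values were Colec12, a scavenger collectin (-0.41), Colec10, a liver collectin (-0.68), and Mbl2, a mannose-binding lectin (-0.84), and none of these log2 fold changes passed (edgeR adjusted p from 0.570 to 0.654).

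Among receptors, Cd93, a receptor of progenitor, myeloid and endothelial cells once described as a C1q receptor, had 39.9, 73.8 and 42.9 CPM in controls against 22.9, 37.4, 27.0 and 40.5 CPM in the knockouts. Itgam, the alpha chain of complement receptor 3, had 45.3, 87.7 and 79.0 CPM in controls against 23.3, 51.9, 56.0 and 46.3 CPM in the knockouts. Control replicate 2 was the highest library of both, the groups overlapped, and neither passed (log2 fold changes -0.71 and -0.67, edgeR adjusted p = 0.334 and 0.457). C1qbp, a mostly mitochondrial protein that can bind C1q, had 308 ± 24 CPM in controls against 342 ± 37 CPM in the knockouts (SD, n = 3 and 4; edgeR adjusted p = 0.655).

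The other plasma components and soluble regulators, most of them secreted by hepatocytes, held no tested gene that passed. None of 5 tested C1 proteases and inhibitors, 5 components around C3, 5 terminal components or 9 soluble regulators was called by edgeR or DESeq2. Over all genes tested edgeR called 0.545% lower and 0.0136% higher, and DESeq2 2.27% and 0.409%. Few calls are thus expected in lists this small. An unadjusted edgeR p under 0.05 was reached by 0 of them, where 6.90% of all genes tested were lower and 3.95% higher. The terminal component C6 had too few reads to be tested, with 13, 10 and 39 in controls against 0, 0, 0 and 4 in the knockouts. When no filter was applied edgeR called it lower (adjusted p = 0.043). C3, the central component, had 633 ± 172 CPM in controls against 541 ± 170 CPM in the knockouts (edgeR adjusted p = 0.776). C1s1, a protease of the C1 complex, had 36.9 ± 7.1 and 36.4 ± 15.5 CPM (edgeR adjusted p = 0.987), Vtn, the terminal pathway inhibitor vitronectin, 171 ± 51 and 183 ± 41 CPM (0.903), and C8a, a chain of the membrane attack complex, 19.7 ± 2.9 and 25.4 ± 8.8 CPM (0.645; SD, n = 3 and 4). All 8 hepatocyte markers had a higher fitted fold change, where 7685 of 14679 genes tested did. Their median log2 fold change was 0.21, and none passed over all genes (0 at an unadjusted p under 0.05, 0 by DESeq2). Their summed level was 21679 and 22866 CPM in knockout replicates 1 and 4. In knockout replicates 2 and 3 it was 14014 and 12883 CPM, within the control range of 10055 to 17738 CPM.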

How the data were processed

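RNA of 7 libraries was analysed. The submitters' processing notes name HISAT2, mm10 and featureCounts. The sources used here do not state software versions, gene annotation, strandedness of counting or treatment of multi-mapping reads. The deposited table of counts holds raw reads per gene symbol. The authors' deposited table of their comparison, made with DESeq2 per the same notes, holds log2 fold changes with standard errors, a test score, p-values and a signal, counts divided by 1 size factor per library (0.855 to 1.14).

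Genes were kept with filterByExpr (14679 of 35976), scaled by TMM and tested with edgeR 4.0.16 (glmQLFit, glmQLFTest; R 4.3.3) on group alone with Benjamini-Hochberg adjustment over all genes, threshold 0.05. SE is the log2 fold change divided by the square root of F. CPM uses TMM-scaled totals, and log2 CPM a prior count of 2. DESeq2 1.42.0 and limma-voom (limma 3.58.1), other scalings and filters, robust dispersion, a replicate block, the Xist level and each left-out library were alternatives. Members and lists were chosen with earlier results of these data known. Genes named are the 9 members, Brd9, Xist, 10 further complement genes with the smallest p beside those called and 1 per remaining role, 5 macrophage genes, and the 5 genes nearest in profile to C1q and to Cfp (mean of at least 1 CPM). Siglec1, F13a1, Mmp8, Mpo, Kit, Cd34, Rag1, Cd3e, Cd55b, Cd59b and C6 were chosen after their values were seen. Brd9 was also tested by an exact two-sided permutation over 35 splits (p = 0.0286, the smallest possible). Libraries of 1 group differed by more than sampling noise (chi-square per degree of freedom 8.50 to 42.0).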

Additional observations from a re-analysis of the deposited data

Results flagged for a closer look

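Among the 4 knockout libraries, 38 named genes were checked for a library far from the others on the log2 CPM scale, and 4 had one. Chance flags about 1 in 20 such groups. Cr1l had 62.7 CPM in knockout replicate 3, against 56.0 to 56.5 CPM in the other knockouts. C5ar2 had 1.75 CPM in that library, against 2.44 to 2.57 CPM. Adgre1 had 4.10 CPM in knockout replicate 1, against 11.8 to 14.6 CPM in the other knockouts, and Il6 had 0.382 CPM there, against 0.975 to 1.09 CPM. The C1q chains and Cfp were also lowest in knockout replicate 1, where their gaps stayed under the critical value.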

How the results depend on the processing

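The number of genes changed was 82, with 228 when no filter was applied, 393 in DESeq2, 52 with the Xist level as a covariate and 20 to 120 without single libraries. The members changed numbered 1, with 3 in DESeq2 (C5ar1, C1qc and Cfp), 0 with the replicate block, and 0 to 1 without single libraries. Further complement genes changed numbered 1, with 2 when no filter was applied (Fcnb and C6), 3 with the replicate block (Fcnb, Cd93 and Itgam) and 0 to 1 without single libraries. Macrophage genes changed numbered 1, with 6 without a filter, 8 in DESeq2, 2 with robust dispersion and 0 to 2 without single libraries. The cause of these moves was not tested. C6, a terminal component, had 62 reads over the controls and 4 over the knockouts and was too low for the filter.

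The labels do not say whether the replicate numbers pair the libraries. Deviations of same-numbered libraries from their group mean correlated at 0.170, -0.022 and -0.0052. With so few libraries these values cannot settle whether they are paired. With the replicate block C5ar1 had an adjusted p of 0.053, and 121 genes changed.

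Signs reversed only for uncalled values near 0. Cr1l went to -0.011 with total counts, -0.0017 without a filter and -0.017 with the Xist level, and ranged from -0.038 to 0.022 without single libraries. Vtn went to -0.024 with the replicate block and ranged from -0.11 to 0.31 without single libraries. C1s1 went to 0.11 with the Xist level and ranged from -0.35 to 0.13 without single libraries, C3 from -0.40 to 0.017, and Cd68 from -0.060 to 0.20. A further 625 values kept their direction and their side of the threshold or moved within the limits set for counts. Scaling moved the median of all genes by less than 0.02. Low counts limit C3ar1 and C5ar1, with 15 to 100 reads per library.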
